A study of Mus musculus with 28 samples.

Results

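Usher syndrome joins deafness with loss of sight, and most of its genes encode proteins of the hair bundle, the tuft of actin-filled stereocilia with which a hair cell senses sound or head movement. The genes described here are 9 Usher and tip link genes, chosen by name: Pcdh15, Cdh23, Cib2, Ush1c, Ush1g, Myo7a, Whrn, Adgrv1 and Clrn1. All 9 are among the 19421 genes of the deposited expression table, and 8 of them passed the filter on low values, which kept 16837 genes. The gene below it was Clrn1.

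The samples were embryoid bodies (EBs), the aggregates in which mouse embryonic stem cells (ESCs) differentiate, collected at day 6. Each of 7 ESC lines of the A2Lox background carried 1 doxycycline (Dox) inducible cassette that ends in the fluorescent reporter mVenus. The cassettes encode Atoh1 (iAtoh1), Gfi1 (iGfi1), Pou4f3 (iPou4f3), Gfi1 with Atoh1 (iG+A), Gfi1 with Pou4f3 (iG+P), Pou4f3 with Atoh1 (iP+A), or Gfi1, Pou4f3 and Atoh1 together (iGPA), with a Flag tag on Atoh1 and a Myc tag on Pou4f3. For each line there were 2 Dox libraries, from mVenus+ cells sorted after 48 h of Dox at 2 µg/ml, and 2 Ctrl libraries, from whole EBs of the same line that received no Dox and were not sorted. The 2 replicates are described in the series as different clones of a line, so n = 2 in every group of the 28 libraries. Dox and sorting cannot be told apart within a line, and in bulk RNA fewer cells of a type and less RNA per cell cannot be told apart either.

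The transgenes followed the labels. Atoh1 was at 12816 to 21242 normalized counts in the Dox libraries of the 4 lines with an Atoh1 cassette and at 14.3 to 32.5 in the other Dox libraries. Gfi1 was at 8119 to 12487 against 49.7 to 113, and Pou4f3 at 4694 to 19883 against 27.7 to 101. Transgene and endogenous transcripts cannot be told apart in them. Estimated depth was 30.4 M to 48.0 M reads per library.

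In a hair cell, each stereocilium is tied to its taller neighbour by a tip link, a fine filament whose upper part is a Cdh23 dimer and whose lower part is a Pcdh15 dimer. The lower end meets the mechanotransduction channel, of which Cib2, a small calcium-binding protein, is a component, while the upper end is anchored by the scaffold proteins harmonin (Ush1c) and Sans (Ush1g) and the motor protein myosin VIIa (Myo7a). Whirlin (Whrn) and the very large receptor Adgrv1 belong to a second Usher complex, at the ankle links of the young bundle. Clrn1 encodes clarin 1, a small membrane protein of the bundle and the synapse.

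Start regions of the tip link gene Pcdh15 and of the upper-anchor genes Ush1c and Myo7a are shown because these genes had different patterns across the lines. RefSeq promoter sequences (250 bases before to 50 bases after a start site, taken from the GRCm38.p6 assembly) were listed for 8 of the 9 genes, with 2 start sites for Myo7a and none for Ush1g, and each sequence matched the NCBIM37 genome once. The motifs searched, on both strands and with no overlap between them in these windows, were CAGCTG, an E-box of the kind bound by Atoh1, AATCAC, the core bound by Gfi1, and ATTAAT, the core bound by Pou4f3 proteins. CAGCTG was found in Pcdh15, beginning 8 bases after the start site at chr10:73284365-73284664 (+ strand), a start inside the annotated gene and downstream of its first base, and in both Myo7a regions, of which the upstream one, printed here, lies at chr7:105267954-105268253 (− strand). The Ush1c region, at chr7:53493811-53494110 (− strand), held none of the motifs. Capitals mark CAGCTG in the sequences, which are printed 5′ to 3′ in the direction of the gene.
Pcdh15: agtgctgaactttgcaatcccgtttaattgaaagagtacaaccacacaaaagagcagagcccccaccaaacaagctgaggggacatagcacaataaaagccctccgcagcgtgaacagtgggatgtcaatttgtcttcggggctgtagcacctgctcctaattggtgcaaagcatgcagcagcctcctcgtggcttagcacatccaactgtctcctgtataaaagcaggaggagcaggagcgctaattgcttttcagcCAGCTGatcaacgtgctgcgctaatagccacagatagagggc
Myo7a: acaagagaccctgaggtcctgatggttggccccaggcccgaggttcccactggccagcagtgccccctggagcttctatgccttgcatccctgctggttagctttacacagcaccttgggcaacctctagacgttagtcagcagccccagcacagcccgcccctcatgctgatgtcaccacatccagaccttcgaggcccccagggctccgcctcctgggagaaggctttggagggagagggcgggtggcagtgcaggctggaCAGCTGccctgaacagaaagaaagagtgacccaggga
Ush1c: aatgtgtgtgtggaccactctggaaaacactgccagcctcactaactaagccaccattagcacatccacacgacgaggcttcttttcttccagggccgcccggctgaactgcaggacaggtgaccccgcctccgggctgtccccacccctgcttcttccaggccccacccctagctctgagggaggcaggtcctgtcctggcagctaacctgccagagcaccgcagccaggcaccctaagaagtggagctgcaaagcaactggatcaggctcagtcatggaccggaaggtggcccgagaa
Among all 32851 listed promoters of this length, 16.3% held CAGCTG, 10.4% AATCAC and 4.75% ATTAAT. None of the 8 genes' regions held AATCAC or ATTAAT, which says only that these letters are not in these windows.

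A gene counts as past the threshold when its adjusted p (limma, Benjamini-Hochberg over the 16837 genes) is under 0.05 and its log2 fold change is 1.5 or more up or down, and it is said to rise or fall only then. Fold changes are differences of log2(normalized count + 1), which understate those of genes with few reads. Of the 8 genes tested, 5 rose in iGPA cells, where 8.65% of all genes tested did. The iG+A and iG+P lines had 4 each (7.35% and 5.16% of all genes), iPou4f3 had 3 (1.47%), iGfi1 and iP+A had 2 each (2.15% and 4.70%), and iAtoh1 had 0 (2.89%). Ush1g is 1 of the genes counted in iGPA, iG+A, iG+P, iPou4f3 and iP+A, and it passed the filter only through the 8 Dox libraries with a Pou4f3 cassette, so its part in the counts of the lines with that cassette is a description. None fell past the threshold in any line, where the share of all genes that fell was 2.52% for iAtoh1, 2.67% for iGfi1, 0.606% for iPou4f3, 4.95% for iG+A, 5.36% for iG+P, 2.58% for iP+A and 5.31% for iGPA. In iAtoh1, 3 of the 8 were higher and 1 lower at an unadjusted p under 0.05, which 5986 of the 16837 genes reached in one direction or the other. The median log2 fold change of the 8 genes was 2.19 for iGPA, 1.56 for iG+A and 1.22 for iG+P, and between 0.31 (iAtoh1) and 0.51 (iGfi1) for the other 4 lines, while the median of all genes tested lay between -0.03 and 0.02 in every line. The medians of the 8 genes include Ush1g, so those of the lines with a Pou4f3 cassette are a description too. The calls differed between genes: Pcdh15 was past the threshold in iG+A and not in iP+A, and Ush1c in iP+A and not in iG+A. Cdh23 and Adgrv1 passed it in no line. Such sets of calls are a description and no test of a difference between genes.

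**Figure D1:**
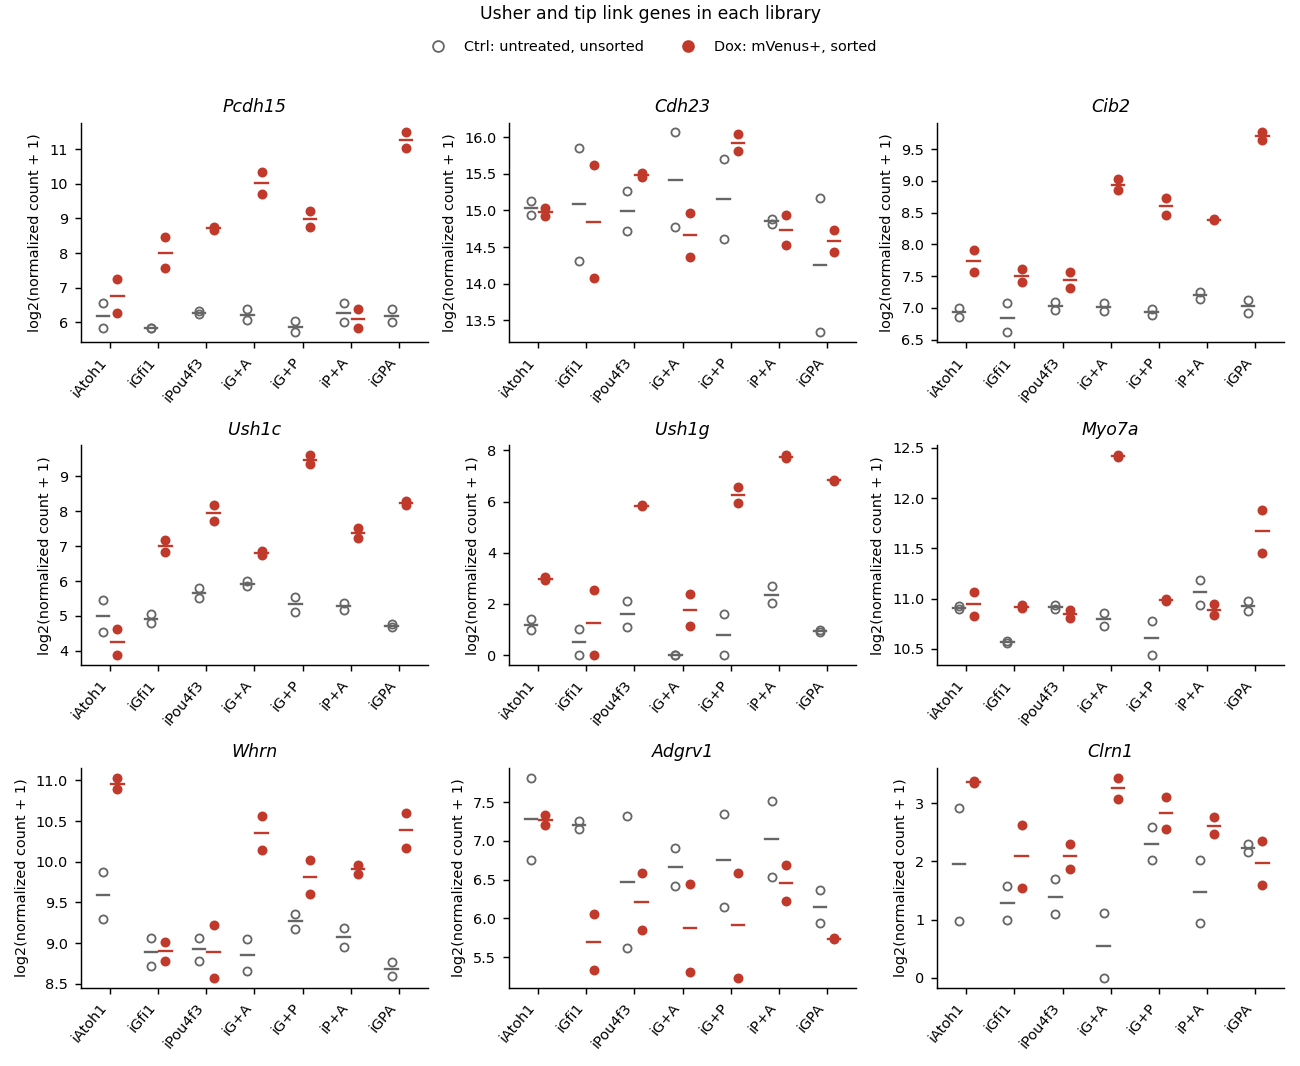
Level of each of the 9 genes in each of the 28 libraries, as log2(normalized count + 1), with lines on the horizontal axis. Open grey circles are Ctrl and filled red circles Dox libraries, and a short bar is the mean of 2 libraries. In iGPA the Dox libraries of Pcdh15 (2863 and 2099 normalized counts) stand far above every Ctrl library, while those of Cdh23 lie within the range of its Ctrl libraries.

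Pcdh15 encodes the lower part of the tip link (Entrez 11994, NCBIM37 chr10:72562090-74112482, + strand). Its level in the Ctrl libraries was even, from 51.4 to 92.9 normalized counts with a median of 64.9. With Dox it reached 2863 and 2099 in iGPA, 1304 and 830 in iG+A, 432 and 592 in iG+P, 430 and 409 in iPou4f3, and 349 and 189 in iGfi1. The remaining Dox libraries read 76.7 and 152 in iAtoh1 and 56.3 and 81.8 in iP+A. In 5 lines both Dox libraries were thus above every Ctrl library, and in iP+A both lay within the Ctrl range. Pcdh15 rose by a log2 fold change of 5.07 in iGPA (standard error 0.36, adjusted p = 3.29e-09), 3.80 in iG+A, 3.11 in iG+P, 2.43 in iPou4f3 and 2.17 in iGfi1, with adjusted p from 2.06e-07 to 0.000346 in the last 4. In iAtoh1 the difference was 0.58 (adjusted p = 0.259) and in iP+A it was -0.17 (adjusted p = 0.774, 95% confidence interval -0.92 to 0.58). In the order of the Dox groups, the 2 libraries of a line did not overlap those of the next line from iGPA down to iGfi1 and iAtoh1, and only iAtoh1 and iP+A overlapped.

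Cdh23, the upper part of the tip link (Entrez 22295, chr10:59765496-60159238, − strand), was by far the most abundant of the genes and uneven between replicates. Its Ctrl libraries ran from 10367 to 68416 normalized counts with a median of 30801, and its Dox libraries from 17229 to 67281 with a median of 31669. In iGPA replicate 1 read 10367 without and 27200 with Dox, and replicate 2 read 36932 without and 22116 with Dox. The replicates thus went opposite ways and the groups overlapped in that line, and no Dox library of any line was above the highest Ctrl library. Log2 fold changes lay between -0.75 (iG+A) and 0.77 (iG+P), each with a standard error of 0.58 and an adjusted p of at least 0.315. The 95% interval in iGPA, from -0.88 to 1.54, includes 0 as well as the threshold of 1.5.

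The level of Cdh23 ranked it 90th of 19421 genes by median. Its highest library was 6.60 times its lowest, a ratio reached by 36 of the 661 genes with a median of at least 10000 normalized counts, whose median ratio was 1.62. The gene most like it over the 28 libraries, Entrez 114600 (unnamed here, 7339 to 42050 normalized counts), had a Pearson r of 0.92. The neighbour Psap, which encodes a lysosomal protein and ends 151 bases away on the opposite strand, read 9683 to 17360 and shared no exon base with Cdh23. Vsir, an immune receptor gene nested in Cdh23 on the opposite strand, was listed at 0 in 25 of the 28 libraries. Psap and Vsir were singled out after their values were seen, and whether all reads assigned to Cdh23 come from Cdh23 transcripts was not tested.

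Cib2 (Entrez 56506, chr9:54392601-54408025, − strand) was higher in all 14 Dox libraries than in any of the 14 Ctrl libraries. Ctrl libraries read 97.0 to 151 normalized counts. Dox libraries read 803 and 868 in iGPA, 522 and 461 in iG+A, 353 and 423 in iG+P, 333 and 337 in iP+A, 187 and 240 in iAtoh1, 168 and 195 in iGfi1 and 158 and 189 in iPou4f3. The lines with a combination of factors thus stood above those with a single factor, and neighbours in this order overlapped only among the 3 single-factor lines.

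Cib2 rose by 2.68 in iGPA (standard error 0.18, adjusted p = 1.89e-09), 1.93 in iG+A (adjusted p = 1.93e-07) and 1.66 in iG+P (adjusted p = 1.16e-06). After quantile normalization the iG+P value was 1.4975, just under the threshold. The differences in iP+A (1.20), iAtoh1 (0.80) and iGfi1 (0.66) had adjusted p from 8.05e-05 to 0.0110 but stayed under the fold threshold, and that in iPou4f3 was 0.41 (adjusted p = 0.230). Cib2 shares 227 exon bases with Sh2d7, a gene on the opposite strand that was singled out after its values were seen. Kallisto at default settings does not use strand, so reads from these bases cannot be told apart. Sh2d7 ran from 11.3 to 141 normalized counts and rose too, by 2.55 in iGPA, 2.15 in iG+A, 1.63 in iP+A and 1.62 in iG+P (adjusted p from 2.82e-06 to 0.000816). Its mean in iGPA was 22.7 without and 138 with Dox, against 130 and 835 for Cib2.

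**Figure D2:**
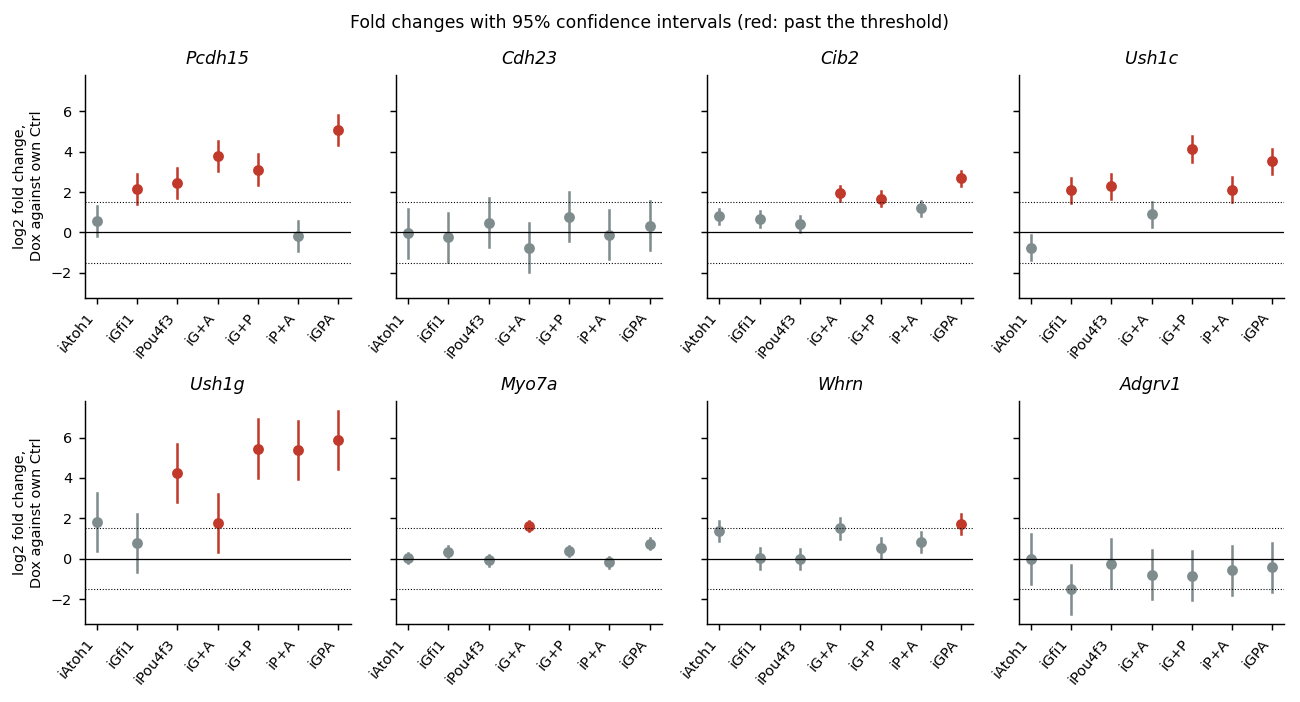
Log2 fold change of Dox against the line's own Ctrl for the 8 genes that passed the filter, with 95% confidence intervals from limma. Red points are past the threshold and dotted lines mark 1.5 and -1.5. Pcdh15 was past it in 5 lines, Ush1c in 5, Ush1g in 5, Cib2 in 3, Myo7a and Whrn in 1 each, and Cdh23 and Adgrv1 in none. The Ush1g calls in lines with a Pou4f3 cassette are a description, since it passed the filter through them. Its iG+A and iGfi1 points rest on a few reads.

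Ush1c encodes harmonin, the PDZ scaffold that holds Cdh23 at the upper end of the tip link (Entrez 72088, chr7:53450720-53493873, − strand). Ctrl libraries read 22.5 to 62.6 normalized counts. With Dox it was highest in iG+P, at 650 and 775, followed by iGPA at 314 and 288, iPou4f3 at 209 and 286, iP+A at 184 and 150, iGfi1 at 113 and 143, iG+A at 116 and 107, and iAtoh1 at 13.7 and 23.6. Only iGfi1 and iG+A overlapped among neighbours in this order. Both libraries of the first 6 lines were above every Ctrl library, while in iAtoh1 the Dox and Ctrl replicates (22.5 and 43.2) overlapped.

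Ush1c rose by 4.14 in iG+P (standard error 0.30, adjusted p = 9.43e-09), 3.52 in iGPA (3.41e-08), 2.28 in iPou4f3 (0.000101), 2.11 in iP+A (4.22e-05) and 2.08 in iGfi1 (8.55e-05), where the values in brackets after the first are adjusted p from the same fit. In iG+A the difference was 0.89 (adjusted p = 0.0233), under the fold threshold, but 1.55 when all 14 Ctrl libraries served as the control (adjusted p = 0.000199). The iG+A Ctrl libraries were the highest of the Ctrl groups, at 62.6 and 57.1. In iAtoh1 it was -0.76 (adjusted p = 0.0744).

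Ush1g encodes Sans, the scaffold that works beside harmonin (Entrez 16470, chr11:115176506-115183355, − strand). It was nearly silent without Dox, at 0 in 4 Ctrl libraries and at no more than 5.52 normalized counts in the other Ctrl libraries. With Dox it stood at 223 and 207 in iP+A, 112 and 113 in iGPA, 59.9 and 94.2 in iG+P and 55.2 and 56.7 in iPou4f3. It read 7.31 and 6.62 in iAtoh1, 4.25 and 1.22 in iG+A, and 4.83 and 0 in iGfi1. The 8 Dox libraries with a Pou4f3 cassette were thus all at 55.2 or more and the 6 without it at 7.31 or less.

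Ush1g rose by 5.88 in iGPA (standard error 0.68, adjusted p = 1.60e-06), 4.23 in iPou4f3 (0.000910), 5.39 in iP+A (1.26e-05) and 5.46 in iG+P (6.23e-06), with adjusted p in brackets. Those 4 lines hold the 8 libraries, out of 28, through which the gene passed the filter, so these calls are a description. A fit with no filter made the same Ush1g calls. These sizes depend on the pseudocount because the Ctrl values are near 0: with 5 in place of 1 the iGPA value was 4.31 and with 0.5 it was 6.30, and all 4 stayed past the threshold. The call in iG+A (adjusted p = 0.0456) set Dox libraries at the level of a few reads against Ctrl libraries both listed at 0, so no fold is given. It ended when the replicate number was fitted as a block (adjusted p = 0.0612), with a pseudocount of 5 (0.134), with only the compared groups in the fit (0.136), with all Ctrl libraries as control (0.356), and without either Ctrl library (0.129 without replicate 1, 0.121 without replicate 2) or Dox replicate 1 (0.300). In iGfi1, where the Ctrl libraries read 1.00 and 0, all values were again at the level of a few reads and no fold is given. Without Dox replicate 2, which read 0, the gene passed the threshold (adjusted p = 0.0365). In iAtoh1, where the adjusted p was 0.0652, it passed after quantile normalization (0.0390) and with all Ctrl libraries as control (0.0187).

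Myo7a, the motor of the upper anchor and a usual hair cell marker (Entrez 17921, chr7:105199570-105268034, − strand), was already at 1386 to 2331 normalized counts in the Ctrl libraries. With Dox it read 5459 and 5504 in iG+A and 2810 and 3785 in iGPA, above every Ctrl library. The other 10 Dox libraries lay between 1785 and 2149, within the Ctrl range. Myo7a rose in iG+A, by 1.63 (standard error 0.13, adjusted p = 2.09e-08). In iGPA the difference was 0.75 (adjusted p = 9.62e-05), and in iG+P (0.38, adjusted p = 0.0258) and iGfi1 (0.35, adjusted p = 0.0475) it was smaller still, all under the fold threshold. The value in iGPA was lower than that in iG+A by 0.88 (adjusted p = 0.00669 for the difference of the 2 Dox effects).

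Whrn, the scaffold of the ankle link complex and of the stereocilium tip (Entrez 73750, chr4:63075944-63157025, − strand), read 385 to 936 normalized counts in the Ctrl libraries. With Dox it was highest in iAtoh1, at 2084 and 1900, then in iGPA at 1153 and 1552 and iG+A at 1130 and 1515, whose libraries overlapped. It read 921 and 998 in iP+A, 1038 and 775 in iG+P, 379 and 594 in iPou4f3 and 517 and 438 in iGfi1, and the libraries of the last 2 overlapped both each other and their own Ctrl libraries. Whrn rose in iGPA, by 1.71 (standard error 0.24, adjusted p = 1.19e-05). Without iGPA Dox replicate 2 that value was 1.49, under the threshold, and with all Ctrl libraries as control it was 1.35.

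The difference of Whrn in iG+A was 1.4984, just under the threshold (adjusted p = 6.99e-05), and it passed without iG+A Ctrl replicate 2 (1.69) or Dox replicate 1 (1.71) and with 75th percentile scaling (1.52). In iAtoh1 it was 1.37 (adjusted p = 0.000419), and it passed without iAtoh1 Ctrl replicate 1 (1.66), the library with the highest Ctrl value (936), and with all Ctrl libraries as control (1.92, adjusted p = 8.26e-07), where it was above the iGPA value. In iP+A it was 0.83 (adjusted p = 0.0149). In iGfi1 (0.01) and iPou4f3 (-0.03) the intervals ran from -0.49 to 0.51 and from -0.53 to 0.47. The 4 lines with an Atoh1 cassette held the 4 largest differences of this gene.

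Adgrv1, the large receptor of the ankle links (Entrez 110789, chr13:81234067-81772153, − strand, named Gpr98 in the annotation), passed the threshold in no line. Ctrl libraries read 48.1 to 223 and Dox libraries 36.6 to 160 normalized counts, so the groups overlapped widely. The difference that came nearest was in iGfi1, at 65.6 and 39.3 with Dox against 152 and 142 without. It was -1.51 (standard error 0.58, adjusted p = 0.0610), and it passed when the replicate number was fitted as a block (adjusted p = 0.0191), after quantile normalization (-1.63, adjusted p = 0.0379) and with only the compared groups in the fit (adjusted p = 0.0315). A long noncoding RNA gene, 9330111N05Rik, overlaps Adgrv1 on the opposite strand without a shared exon base and was read at 1618 to 13236.

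Clrn1 (Entrez 229320, chr3:58647950-58689262, − strand) stayed below 10 normalized counts in all 28 libraries, from 0 to 6.52 in Ctrl and from 1.93 to 9.76 in Dox libraries. In iG+A it read 7.45 and 9.76 with Dox and 1.16 and 0 without. In a fit without the filter this difference passed the threshold (adjusted p = 0.00128), and no other line did. At this level a library holds only a few reads of the gene.

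Lines that differ by 1 transgene were compared by the difference of their Dox effects, each against the line's own Ctrl, in the same fit. There are 9 such pairs, and 14 of the differences of these genes passed the threshold. Pcdh15 and Ush1c each had 5 of them, Ush1g 3 and Myo7a 1. The Dox libraries of 2 lines were also compared directly, as sorted cells against sorted cells. The transgenes that a pair shares were not at one level: mean Pou4f3 with Dox was 5037 normalized counts in iPou4f3, 11873 in iP+A, 14076 in iGPA and 18737 in iG+P, while mean Atoh1 ran from 13852 (iP+A) to 20119 (iAtoh1) and mean Gfi1 from 8792 (iGPA) to 11608 (iG+P). A pair that adds Gfi1 or Atoh1 to Pou4f3 thus differs in its Pou4f3 level too, and the part of this in the results was not tested.

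**Figure D3:**
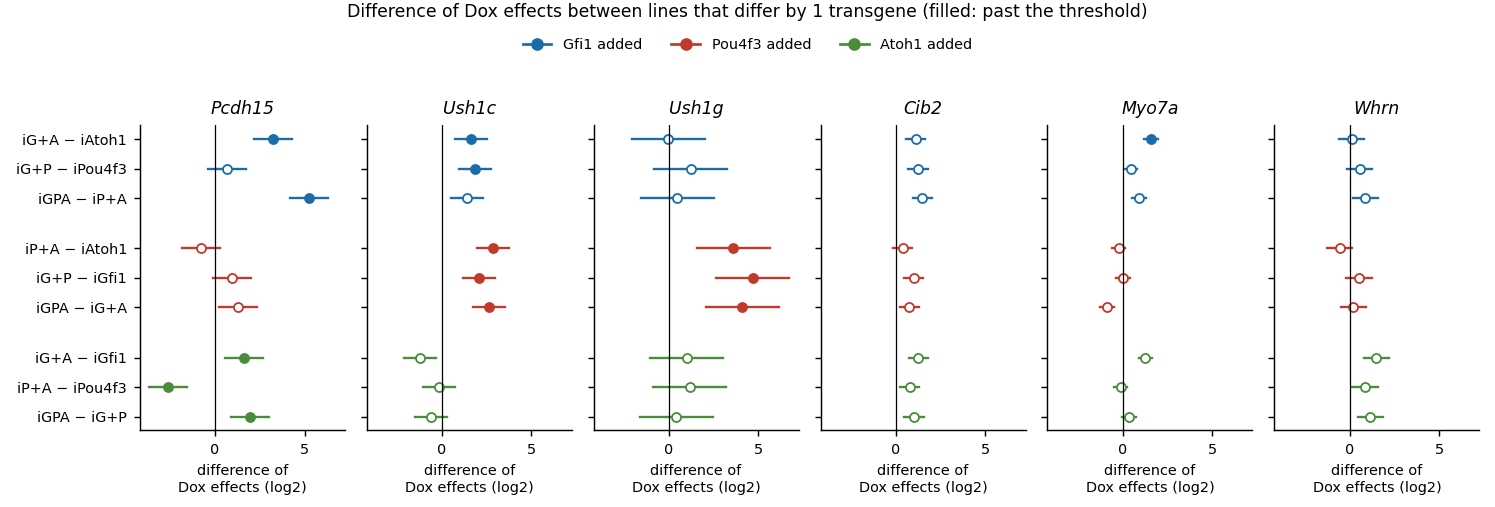
Difference of Dox effects (log2, with 95% confidence intervals) between lines that differ by 1 transgene, for 6 genes. Blue rows add Gfi1, red rows Pou4f3 and green rows Atoh1, and filled points are past the threshold. Ush1c passed it in each of the 3 pairs that add Pou4f3, the Ush1g values rest on few reads outside the lines with Pou4f3, and Pcdh15 ranged from -2.61 to 5.24.

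Adding Gfi1 to Pou4f3 with Atoh1 gave the largest of these differences, that of Pcdh15. It was 5.24 between iGPA and iP+A (standard error 0.50, adjusted p = 2.65e-06), and no other of the 8 genes passed (4.76% of all genes did upward). Adding Gfi1 to Atoh1 (4.44% of all genes upward) raised the Dox effects of 3 genes, namely Pcdh15 by 3.22 (adjusted p = 0.000275), Ush1c by 1.65 (0.0124) and Myo7a by 1.59 (1.17e-05). Adding Gfi1 to Pou4f3 (3.43%) did so for 1 gene, Ush1c, by 1.86 (0.00491), where the value for Pcdh15 was 0.68 (0.397). The numbers in brackets after the gene values are adjusted p. Cib2 moved by a like amount in all 3 pairs, 1.49, 1.12 and 1.25, with adjusted p of 0.000575, 0.00555 and 0.00223 but under the fold threshold. In the direct comparison of Dox libraries the Pcdh15 values were 5.15, 3.25 and 0.27, and Myo7a between iG+A and iAtoh1 stood at 1.47, under the threshold.

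In the pair iG+A and iAtoh1, Ush1c lost its call without iAtoh1 Ctrl replicate 2 (1.19, adjusted p = 0.0681) or Dox replicate 1 (1.28, adjusted p = 0.0720), with only the compared groups in the fit (adjusted p = 0.164), after quantile normalization of all groups (1.42) or with a pseudocount of 5 (1.4998), each changed alone. Myo7a lost its call without iAtoh1 Dox replicate 1 (1.47). In the pair iGPA and iP+A, Cib2 passed without iGPA Ctrl replicate 2 (1.58), iGPA Dox replicate 1 (1.54) or iP+A Ctrl replicate 2 (1.53). Ush1c, at 1.41 there, passed without iP+A Ctrl replicate 2 (1.51) or Dox replicate 1 (1.55).

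With Pou4f3 added, the Dox effect of Ush1c was larger in all 3 pairs. Ush1c differed by 2.87 between iP+A and iAtoh1 (adjusted p = 0.000334, 2.09% of all genes upward), by 2.06 between iG+P and iGfi1 (0.00887, 1.42%) and by 2.63 between iGPA and iG+A (0.000934, 1.60%). The fitted differences of Ush1g in the same pairs were 3.59 (0.0356), 4.69 (0.00925) and 4.10 (0.0195). They are a description only, since they subtract Dox effects at the level of a few reads, for 2 of which no fold is given, and since the gene passed the filter through the lines with Pou4f3. With only the compared groups in the fit, the Ush1c call between iP+A and iAtoh1 ended (adjusted p = 0.0624). Pcdh15 did not pass in any of the 3 pairs, with -0.75, 0.94 and 1.26. The direct comparison of Dox libraries gave 3.13, 2.47 and 1.42 for Ush1c, the last under the threshold.

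Leaving out 1 library also ended several of the Ush1g calls. Between iP+A and iAtoh1 the call ended without any 1 of 7 of the 8 libraries, all but iP+A Ctrl replicate 2 (adjusted p from 0.0711 to 0.125, values 3.24 to 3.79). Between iGPA and iG+A it ended without any 1 of 6, all but iG+A Ctrl replicate 2 and iG+A Dox replicate 1 (adjusted p from 0.0527 to 0.0824). Between iG+P and iGfi1 it ended without iGfi1 Ctrl replicate 2 (0.0547) or iG+P Ctrl replicate 1 (0.0626). With a pseudocount of 0.5 the calls in the first 2 of these pairs ended too (adjusted p = 0.136 and 0.109), and with only the compared groups in the fit those in the last 2 did (0.0555 and 0.120). Without iG+P Ctrl replicate 1 the Ush1c difference of that pair lost its call too (1.84, adjusted p = 0.0556).

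Adding Atoh1 had effects of both signs on Pcdh15. Its Dox effect was lower by 2.61 in iP+A than in iPou4f3 (standard error 0.50, adjusted p = 0.00624), where 0.172% of all genes passed downward and 1.44% upward. It was higher by 1.63 in iG+A than in iGfi1 (adjusted p = 0.0229, 5.17% of all genes upward) and by 1.95 in iGPA than in iG+P (adjusted p = 0.0134, 4.24%). No other of the 8 genes passed in these 3 pairs. In the same order of pairs Whrn gave 0.86, 1.49 and 1.16, and Cib2 0.79, 1.27 and 1.02. The direct comparison of Dox libraries gave -2.61, 2.02 and 2.27 for Pcdh15, with adjusted p from 3.82e-05 to 0.000332.

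Without iP+A Dox replicate 1 the Pcdh15 value for iP+A against iPou4f3 was -2.34 and no longer past the threshold (adjusted p = 0.0529). The difference between iGPA and iG+P lost its call without iG+P Ctrl replicate 2, iG+P Dox replicate 1, iGPA Ctrl replicate 2 or iGPA Dox replicate 1 (adjusted p from 0.0507 to 0.0682). That between iG+A and iGfi1 lost it without either iGfi1 Ctrl library, iGfi1 Dox replicate 2, iG+A Ctrl replicate 2 or iG+A Dox replicate 1 (values 1.19 to 1.64, adjusted p from 0.0543 to 0.107), after quantile normalization (1.4968) and with only the compared groups in the fit (adjusted p = 0.0581). Whrn passed in that pair without iGfi1 Ctrl replicate 2, iGfi1 Dox replicate 1, iG+A Ctrl replicate 2 or iG+A Dox replicate 1 (1.61 to 1.70).

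Levels can be set between genes only per length, here as normalized counts per kilobase of the longest coding sequence. On this scale Cdh23 was first in all 14 groups, from 2350 to 6186. Its place rests on the reads assigned to it, and whether all come from Cdh23 transcripts was not tested. In the Ctrl groups Myo7a (228 to 323), Cib2 (205 to 258) and Whrn (149 to 284) came next. Pcdh15, the partner of Cdh23 in the tip link, was lower than these 3 genes in every Ctrl group (9.65 to 13.4). Ush1c stood at 9.29 to 21.9, Adgrv1 at 3.76 to 8.74, Clrn1 at 0.770 to 5.36 and Ush1g at 0 to 3.09. In iGPA Dox cells the order was Cdh23 (2450), Cib2 (1481), Myo7a (496), Whrn (491), Pcdh15 (425), Ush1c (110), Ush1g (81.0), Clrn1 (4.06) and Adgrv1 (2.77). The SDs of Myo7a (104), Whrn (102) and Pcdh15 (92.6) exceed the gaps between them, so these 3 are not ordered by the data. Clrn1 (SD 1.95) and Adgrv1 are not ordered either. The order rests on 1 coding length per gene, and transcripts in these cells may be shorter: the coding transcripts of Pcdh15 run from 1514 to 9184 bases.

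**Figure D4:**
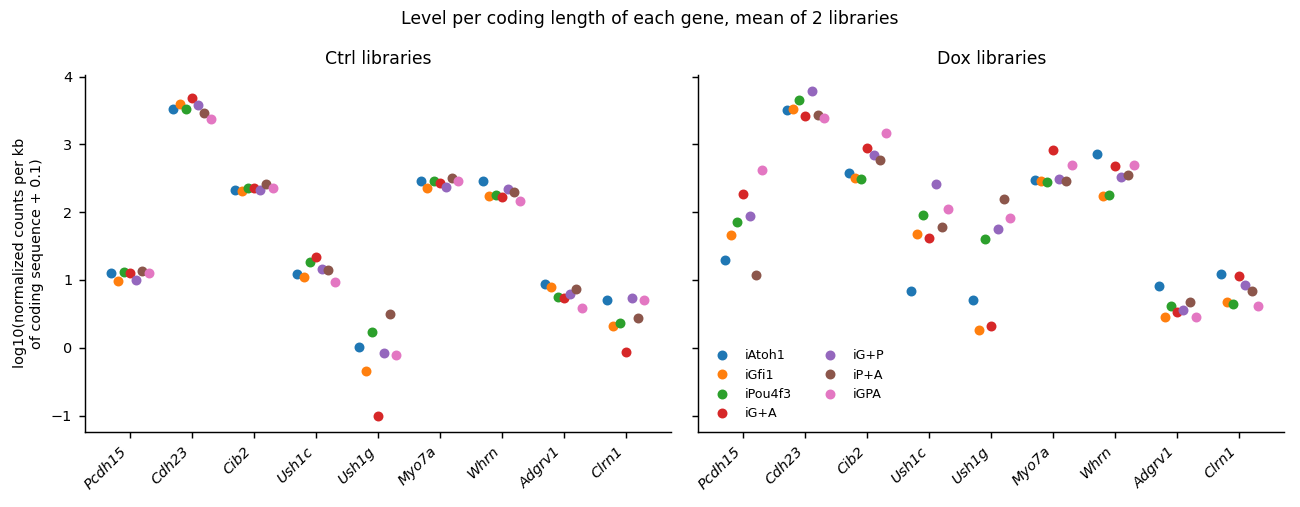
Level of each gene per kilobase of its longest coding sequence, as log10(value + 0.1), for Ctrl groups (left) and Dox groups (right). Each point is the mean of 2 libraries of a line. By the reads assigned to it, Cdh23 was highest in every group, and Ush1g was at 0 in iG+A Ctrl and at 155 in iP+A Dox.

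Over the 28 libraries, which share lines and conditions and so are not independent points, Pcdh15 was most like Cib2 among the members (Pearson r of log2 values 0.83), followed by Myo7a (0.72) and Ush1c (0.71). Ush1c and Ush1g had an r of 0.73, Pcdh15 and Cdh23 0.03, and Pcdh15 and Adgrv1 -0.51. Among all genes, those close to Pcdh15 included Tmem38a (0.92) and Pdzk1ip1 (0.91), and those most like Cib2 were Grm4, Coq10a and Foxo6 (0.96). Ush1c went with Sacm1l (0.92) and Rhof (0.905), Ush1g with Rtn4rl1, Asic1 and Gh (0.95 to 0.94), Myo7a with Jak3, Exoc3l and Npas1 (0.94 to 0.90) and Whrn with Stra6l and Inava (both 0.91). Adgrv1 reached 0.79 with Nod2, 0.77 with Usp28 and 0.76 with Parp12. After Entrez 114600, Cdh23 reached 0.77 with Mrgpra6 and 0.76 with Slc16a12.

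Neighbouring genes were inspected as a check of where reads were assigned. No overlapping or nearest gene with a median as high as its member's shared an exon base with it. Those genes were, besides 9330111N05Rik, Zwint and Rsph14 beside Pcdh15, Dmxl2 and Idh3a beside Cib2, Otop2 and Fads6 at Ush1g, Atp6v1g1 beside Whrn, Arrdc3 and Lysmd3 beside Adgrv1, and Siah2 beside Clrn1. Otop2, which overlaps Ush1g on the opposite strand, ran from 2.85 to 71.8 normalized counts.

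Proteins that bind or work beside these genes' products were followed as a list of 27 genes, 21 of the hair bundle and 6 of the intestinal brush border, where harmonin also serves as a scaffold. Of the bundle genes 18 were tested: Pdzd7 was not among the genes of the table, and Cib3 and Clrn2 were below the filter. The number that rose was 9 in iG+P, 6 in iGPA, 5 in iP+A, 3 in iPou4f3, 2 in iG+A, 1 in iGfi1 and 0 in iAtoh1, and 1 fell, the motor gene Myo15a in iG+A (-1.54, named after its value was seen). In the same order of lines, the share of all genes that rose was 5.16%, 8.65%, 4.70%, 1.47%, 7.35%, 2.15% and 2.89%, and 4.95% fell in iG+A. The median log2 fold change of the bundle genes was 1.52 in iG+P, 0.55 in iGPA, 0.52 in iP+A, 0.16 in iPou4f3, 0.03 in iGfi1, -0.21 in iG+A and -0.22 in iAtoh1. Myo15a, which fell in iG+A, rose in iG+P (3.05, adjusted p = 1.53e-07) and iGfi1 (1.91, adjusted p = 9.24e-05). Its difference was 1.38 in iGPA and -1.17 in iAtoh1, both under the fold threshold.

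In iGPA the bundle genes that rose were Tmie, Tmc2, Espn, Eps8l2, Myo3b and Loxhd1. Tmie, a subunit of the mechanotransduction channel, went from a mean of 2.73 to 1030 normalized counts, a log2 fold change of 8.14 (standard error 0.44, adjusted p = 1.35e-10) that depends on the pseudocount at so low a Ctrl level. Tmc2, a pore-forming channel subunit of young hair cells, rose by 3.14. The actin genes Espn, a bundler, and Eps8l2, a capping protein, rose by 3.10 and 3.09, the motor gene Myo3b by 2.95, and Loxhd1, which encodes a membrane-associated stereocilium protein, by 2.39. Adjusted p of these 5 lay between 4.95e-07 and 0.00553.

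Of the 5 brush border genes tested, Cdhr5, a protocadherin of the microvillus tip links, rose by 4.97 in iGPA (adjusted p = 1.27e-07), and by 4.01 to 5.13 in iAtoh1, iG+A and iP+A, the other lines with an Atoh1 cassette. Anks4b was below the filter. The number of brush border genes that rose was 2 in iG+A and in iP+A, 1 in iAtoh1, iPou4f3 and iGPA, and 0 in iGfi1 and iG+P, and 1 fell, the motor gene Myo7b in iG+A (named after its value was seen). In the same order, the share of all genes that rose was 7.35%, 4.70%, 2.89%, 1.47%, 8.65%, 2.15% and 5.16%, and in iG+A 4.95% fell. Myo7b itself rose in iPou4f3 (2.12, adjusted p = 0.0465) and iP+A (1.73, adjusted p = 0.0391).

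**Figure D5:**
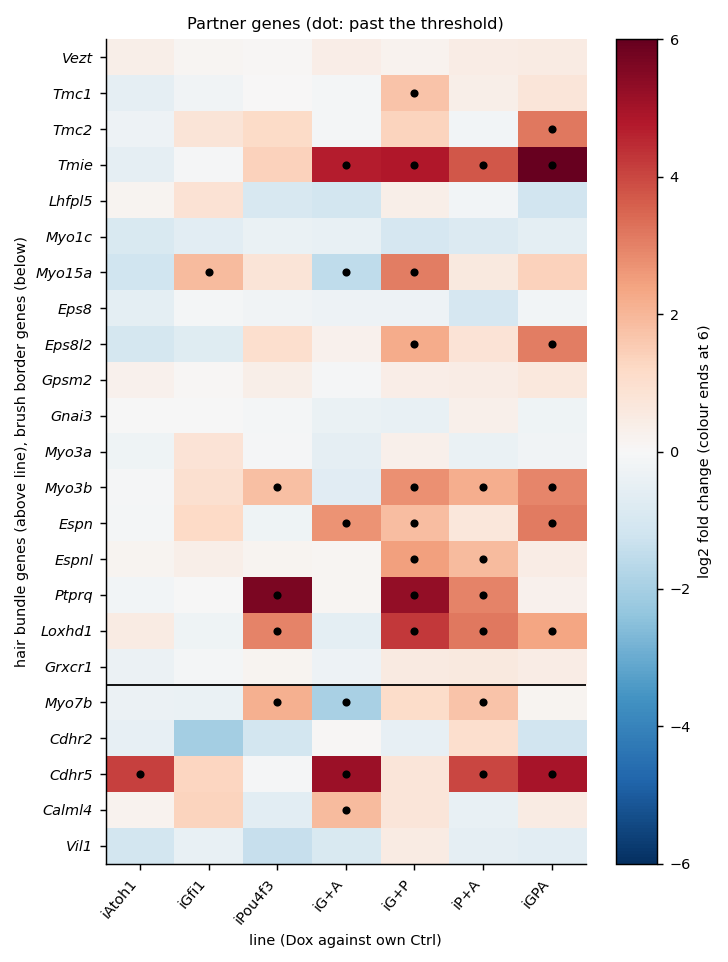
Log2 fold change of Dox against own Ctrl in the 7 lines for the 23 partner genes that passed the filter, with bundle genes above the line and brush border genes below it. Red is higher and blue lower with Dox, black dots mark genes past the threshold, and the colour scale ends at 6, below the 8.14 of Tmie in iGPA. The iG+P column holds 9 dots and the iAtoh1 column 1, that of Cdhr5.

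Markers of other cell types moved with Dox in the same lines. The summed level of 12 hair cell markers, among them Espn from the partner list, was 13306 to 13920 normalized counts in iGPA Dox against 2390 to 2649 in its Ctrl, and 6 of the 11 tested rose. That of 12 neuronal markers was 8887 to 8888 in iGPA Dox and 18655 to 25135 in iP+A Dox, against 585 to 913 and 910 to 1841 in their Ctrl libraries, with 10 of 12 rising in iGPA and 11 of 12 in iP+A. The hair cell sum was 9302 to 10026 in iG+P Dox, 6826 to 7940 in iG+A Dox and 6804 to 7310 in iP+A Dox, against no more than 4123 in any Ctrl library. It was 5057 to 5412 in iAtoh1 Dox, 4076 to 4662 in iPou4f3 Dox and 3120 to 3336 in iGfi1 Dox. Of the 11 tested, 6 rose in iG+P, 5 in iG+A, 4 in iP+A, 1 in iPou4f3 and 0 in iAtoh1 and iGfi1. In iG+A and iAtoh1 1 fell, and in iGfi1 2 fell. In iG+A, the line where Myo7a rose, the neuronal sum was 1525 to 1810 with Dox against 607 to 896, the blood sum went from 382656 to 491620 down to 43697 to 51804, and the endothelial sum from 21348 to 21958 up to 29563 to 32357, with 0 of 6 endothelial markers past the threshold. In iG+P Dox the neuronal sum was 2173 to 2522 against 1068 to 1193, and 3 of 12 rose. The mesenchyme sum in iGPA went from 76883 to 123325 down to 9724 to 12664, with 8 of 11 markers falling and 1 rising, and the blood sum went from 260602 to 436153 down to 21726 to 40933, with 4 of 10 falling. In iG+A the mesenchyme sum went from 115230 to 162060 down to 19550 to 45516, with 5 of 11 markers falling. In iG+P it went from 66534 to 75124 down to 11021 to 14240, again with 5 of 11 falling. Visceral endoderm and gut markers, whose epithelia use Ush1c and Cdhr5, went down in sum in every line, and 6 of 11 fell in iGPA. No list had a marker below 1 normalized count in every library. Pcdh15 was at its Ctrl level in iP+A, where the neuronal sum was highest, and Ush1g at its highest. The part of these shifts in cell makeup in the results was not tested.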

How the data were processed

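The series holds 28 RNA-seq libraries (7 lines, Ctrl and Dox, 2 replicates each). The authors trimmed reads with cutadapt, pseudo-aligned them with Kallisto (default settings, knownGene transcripts of UCSC mm9), and took gene counts through tximport into DESeq2 for normalization. Tool versions are not given in the sources used here. The deposited table gives log2(normalized count + 1) for 19421 Entrez gene IDs. RefSeq named 19314 of them, and positions come from GENCODE M1 on NCBIM37.

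From these values, normalized counts were recovered as 2 to the power of the value, less 1. Whole reads could not be recovered (70.6% to 79.6% of values up to 20 lay within 0.05 of a whole read), so no count model was run. Depth, estimated from the value of 1 read, was 30.4 M to 48.0 M reads, and counting error is large for genes such as Ush1g and Clrn1. The 16837 genes that reached 10 normalized counts in 2 or more libraries were fitted in 14 groups with limma 3.58.1 in R 4.3.3 (variance trend, 14 residual degrees of freedom), and p-values were adjusted by Benjamini-Hochberg contrast by contrast. These were Dox against own Ctrl in 7 lines and 9 differences of Dox effects between lines that differ by 1 transgene. The fit was tested on simulated log2 values with independent normal noise of the spread it had itself estimated. Such values do not bear on genes with few reads.

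Replicates are different clones of a line in the series text, so equal numbers were taken to pair Ctrl and Dox. Deviations of equal-numbered libraries from their group means correlated by 0.10 to 0.25 in the 7 lines. A fit with the replicate as a block was an alternative, as were other pseudocounts, filters and scalings, other control sets, and each library left out in turn.

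The genes named were all members, partner genes past the threshold in iGPA (at most 8), the 3 genes most like each member (some of these genes, and 1 gene of the partner list, are not reported here), and neighbours at least as abundant as the member. Members and lists were chosen with earlier results of these data known.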

Additional observations from a re-analysis of the deposited data

Results flagged for a closer look

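The Dox effect differed between lines that differ by 1 transgene in 14 tests of single genes, each by the test of the difference itself. For Pcdh15 the differences were 3.22 (iG+A minus iAtoh1), 5.24 (iGPA minus iP+A), 1.63 (iG+A minus iGfi1), 1.95 (iGPA minus iG+P) and -2.61 (iP+A minus iPou4f3). For Ush1c they were 1.65 (iG+A minus iAtoh1), 1.86 (iG+P minus iPou4f3), 2.87 (iP+A minus iAtoh1), 2.06 (iG+P minus iGfi1) and 2.63 (iGPA minus iG+A). For Ush1g they were 3.59 (iP+A minus iAtoh1), 4.69 (iG+P minus iGfi1) and 4.10 (iGPA minus iG+A), and for Myo7a 1.59 (iG+A minus iAtoh1). The Ush1g values subtract Dox effects at the level of a few reads, with Ctrl libraries at or near 0, and the gene passed the filter only through the 8 Dox libraries with a Pou4f3 cassette, so they are a description. All are log2 values from limma past an adjusted p of 0.05 and a size of 1.5. Groups of 2 libraries were too small for a check of single outlying libraries.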

How the results depend on the processing

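None of the fold changes or differences of the 8 genes reversed past the threshold under an alternative. Of the values for Dox against own Ctrl, 546 stayed on the same side of the threshold under the other settings, 8 gained a call and 6 lost one. With 1 library left out the numbers were 216, 4 and 4. For the differences of Dox effects they were 706, 2 and 12, and 538, 9 and 29. Most values that stayed were never past the threshold, and only the 14 differences past it could lose a call. The first number of each set thus does not measure how stable the calls were. The number of the 8 genes past the threshold moved by more than 1.5 times as follows. In iAtoh1, with 0 in the reported fit, it was 1 after quantile normalization, 1 with a fold threshold of 1 on the log2 scale and 2 with all 14 Ctrl libraries as control. With the fold threshold of 1 it was also 2 for iG+P minus iPou4f3 (reported 1), 3 for iGPA minus iP+A (1), 5 for iG+A minus iGfi1 (1) and 3 for iGPA minus iG+P (1). With only the compared groups in the fit it was 1 for iP+A minus iAtoh1 (2), 1 for iG+P minus iGfi1 (2), 1 for iGPA minus iG+A (2) and 0 for iG+A minus iGfi1 (1). With a pseudocount of 0.5 it was 1 for iP+A minus iAtoh1 and 1 for iGPA minus iG+A, with 75th percentile scaling 2 for iGPA minus iP+A, after quantile normalization 0 for iG+A minus iGfi1, and with Dox libraries compared directly 1 for iGPA minus iG+A and 2 for iG+A minus iGfi1. With each library left out in turn it ran from 0 to 1 in iAtoh1, iP+A minus iPou4f3 and iGPA minus iG+P, from 1 to 3 for iG+A minus iAtoh1 and iGPA minus iP+A, from 1 to 2 for iP+A minus iAtoh1 and iGPA minus iG+A, and from 0 to 2 for iG+P minus iGfi1 and iG+A minus iGfi1. The replicate block, used as the pairing within lines, changed the calls of Ush1g in iG+A (3 of 8 genes past the threshold in place of 4) and Adgrv1 in iGfi1 (3 in place of 2) and no other call. The cause of these changes was not tested. Depth limits Ush1g without Dox and Clrn1 throughout, and with 2 libraries a group the 95% intervals of Cdh23 and Adgrv1 span more than 2 log2 units.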
